A study of Mus musculus with 24 samples.

Results

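Skeletal muscle turns an action potential into force through a set of membrane proteins. Here 44 genes of this excitation-contraction coupling and calcium-handling machinery were followed over 24 arrays of cultured mouse muscle cells. They were chosen by name, with earlier results of these data known. Each was read from the 1 probe set whose platform annotation lists that symbol alone, or from the one with the highest mean over all arrays where several did. That gave values for 42 of the 44 genes, out of 19938 genes measured, while Cacng6 and Itpr1 had no such probe set and are not analysed here. The study compared cells without and with the receptor tyrosine kinase MuSK, as myoblasts and as myotubes, with and without bone morphogenetic protein 4 (BMP4). It asked how MuSK bears on the BMP4 response at these stages.

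Arrays fall into 8 groups of 3: BMP4-treated and untreated MuSK-null myoblasts, BMP4-treated and untreated wild-type myoblasts, BMP4-treated and untreated MuSK-null myotubes, and BMP4-treated and untreated wild-type myotubes. All cells carry H-2Kb-tsA58, a temperature-sensitive large T antigen whose promoter answers to interferon-γ, so every group shares this immortalising transgene. Myoblasts grew at 33 °C with interferon-γ, and confluent cultures were moved to horse serum at 37 °C for 3 days to give myotubes, so stage cannot be told apart from temperature and medium. BMP4 was given at 25 ng/ml for 8 h, to myoblasts after 4 h without serum and to myotubes with no such step. Whether untreated myoblasts also went without serum is not stated, so in myoblasts serum and BMP4 cannot be told apart. Each genotype is 1 immortalised line, and a genotype difference cannot be told apart from a difference between lines. Replicates are called biological in the labels, which do not say whether they were separate cultures. P-values therefore measure the spread between these arrays, part of which may be technical.

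Depolarisation of the transverse tubule moves the voltage sensor, an L-type calcium channel, which in skeletal muscle opens the ryanodine receptor of the sarcoplasmic reticulum by direct contact. Junctophilins hold both membranes together, calsequestrin and its partners store calcium in the reticulum, and calcium pumps return it there to end the contraction. Calcium also acts as a signal: calmodulin kinases and the phosphatase calcineurin, with its NFAT transcription factors, read its level, and store-operated channels refill the reticulum.

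Deposited signals are log2 values, 1 per probe set and array, and every level below is such a log2 signal. A log2 change is the first-named group minus the second, and 1 log2 unit is a 2-fold step. A change was called where limma's adjusted p, over all 19938 genes, was under 0.05. Array medians lay between 7.38 and 7.50. Within groups the SD had a median of 0.07 log2 units over the 42 measured genes and 0.09 over all genes. The number of arrays limits the precision. For each of the 42, the highest group mean was at least 6. No detection calls were used, so whether signals near or below the array medians lie above background was not tested, and no linear fold is given. Markers of endothelial cells, a cell type not named in the labels, averaged 6.37 to 6.63 on the arrays. Group means of 1 gene spanned 1.70 log2 units in the median, against 0.45 over all genes.

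Musk, the deleted gene, gave log2 signals of 10.69, 10.93 and 10.94 in untreated MuSK-null myoblasts, against 11.50, 11.58 and 11.63 in wild-type myoblasts. MuSK-null myotubes gave 11.17, 11.24 and 11.24, against 12.69, 12.72 and 12.76 in wild-type myotubes. The arms did not overlap at either stage, although a signal remained. The labels do not say which exons were removed. The 10 genes listed as marking differentiated myotubes, Myog and Myh3 among them, averaged 9.19 to 9.34 on the untreated MuSK-null myoblast arrays and 11.54 to 11.65 on the wild-type ones. In myotubes their means were 13.08 to 13.10 without MuSK and 13.26 to 13.30 in wild type. Wild-type cultures labelled myoblast already held myotube transcripts, with Myh3, the embryonic myosin heavy chain, at 13.79 to 13.81 in wild-type myotubes, against 12.54 to 12.70 in wild-type myoblasts. In untreated myotubes 9 of 9 measured markers of cycling cells were higher without MuSK, with array means over the list of 9.87 to 9.97 in MuSK-null and 9.12 to 9.25 in wild-type myotubes. Of 11 fibroblast markers 8 were higher there and 3 lower, with array means of 10.47 to 10.58 without MuSK and 9.50 to 9.63 in wild type. In untreated myoblasts 8 fibroblast markers were higher without MuSK and 2 lower, at 9.83 to 9.86 in MuSK-null and 9.19 to 9.23 in wild-type cells. Of the cycling markers 2 were higher and 1 lower. In 4 myoblast arrays, 1 in each myoblast group, deviations from the group means moved together (r over genes 0.42 to 0.54). They were untreated MuSK-null myoblast array 2, BMP4-treated MuSK-null myoblast array 2, untreated wild-type myoblast array 2 and BMP4-treated wild-type myoblast array 3. In bulk RNA, fewer cells of a type and less RNA per cell cannot be told apart, and the part of these markers in the results below was not tested.

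**Figure D1:**
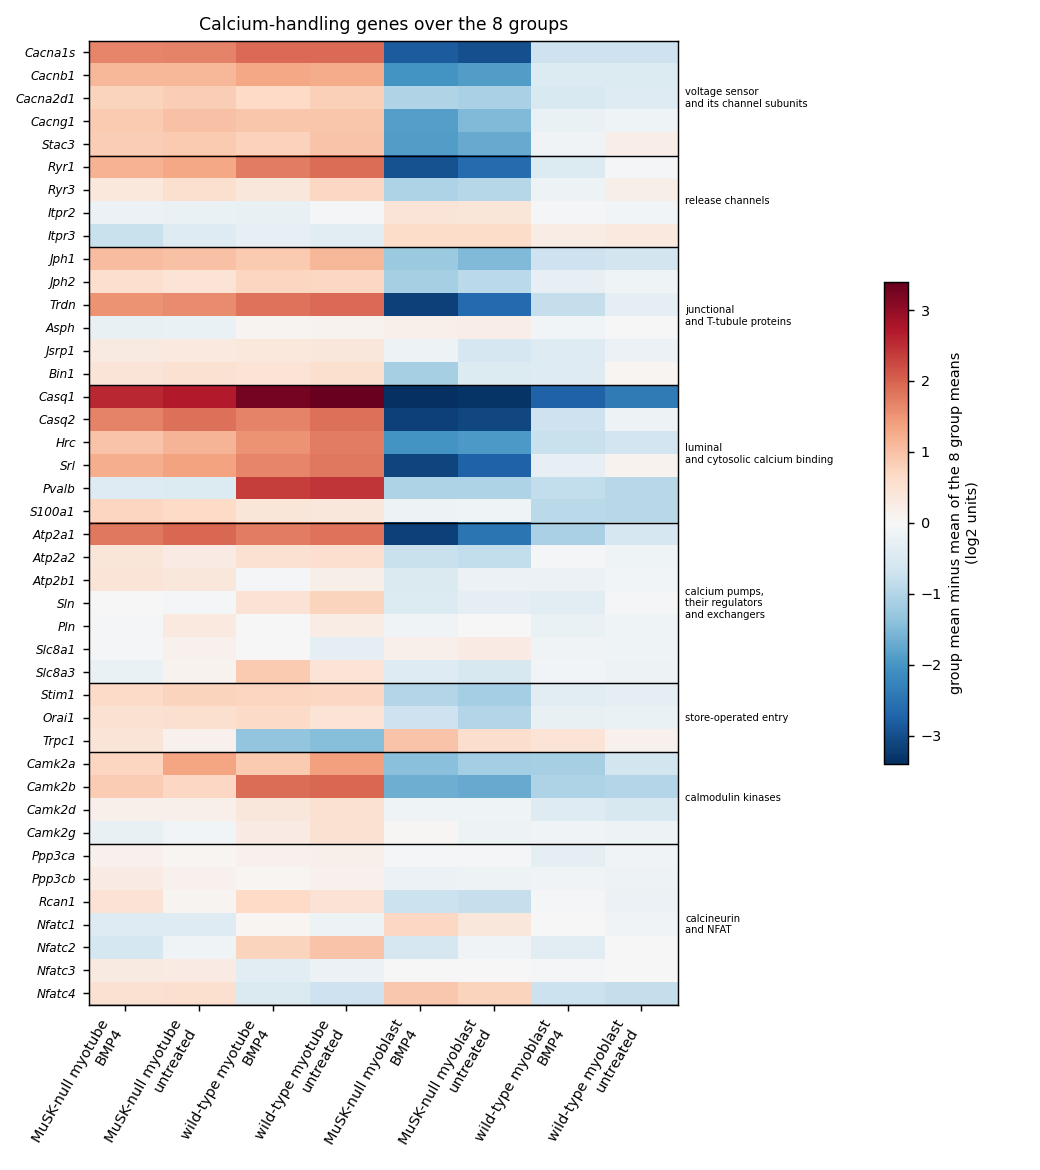
Colour gives the mean of the 3 arrays of a group minus the mean of that gene's 8 group means, in log2 units; rows are the 42 measured genes, ordered by role, and columns the 8 groups. Voltage sensor subunits, ryanodine receptors and luminal proteins are lowest in MuSK-null myoblasts, and Pvalb stands high in wild-type myotubes alone.

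Calcium-handling genes rose with differentiation in both lines. Of the 42, 32 rose and 5 fell in untreated MuSK-null myotubes relative to myoblasts, where 18.2% of all genes rose and 23.4% fell (41.6% changed in either direction). In wild-type cells 35 rose and 3 fell, where 20.3% of all genes rose and 24.7% fell (45.0% in either direction). The median log2 change over the 42 was 0.93 in MuSK-null and 0.76 in wild-type cells, beside -0.01 and -0.05 over all genes. In all, 31 genes rose in both lines, Itpr3 and Trpc1 fell in both, and Asph fell in MuSK-null cells and rose in wild-type cells. How many of all genes rose in both lines was not counted. A rise of at least 1 log2 unit was reached by 20 genes in MuSK-null cells and 18 in wild-type cells. Of all 19938 genes, 744 and 801 reached it.

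MuSK-null myoblasts held less of most of these transcripts than wild-type myoblasts, and in myotubes most genotype differences were smaller. In untreated myoblasts 24 of 42 genes were lower without MuSK and 9 were higher, where 16% of all genes were lower and 15.3% higher (31.3% in either direction). With arrays centred on their medians the 42 gave the same counts, while over all genes 4038 were higher and 2527 lower, against 3058 and 3187 as deposited. The median log2 difference was -0.53, beside -0.01 over all genes. In untreated myotubes 17 were lower and 5 higher, where 18.0% of all genes were lower and 19.4% higher (37.4% in either direction). The median was then -0.13, beside 0.04. The difference was larger in size in myoblasts than in myotubes for 31 of the 42. The matching count over all genes was not made, so 31 has no background beside it. The 24 genes lower in MuSK-null myoblasts had a median log2 difference of -0.90 there and of -0.14 in myotubes, but they were picked by their myoblast call, which can make the first value more extreme. Of the 11 lower by at least 1 log2 unit in myoblasts, picked in the same way, 4 were called lower in myotubes and 7 were not called. On the same 12 arrays, the change with differentiation differed between the lines for 32 genes. It was more positive in MuSK-null cells for 22 and less positive for 10, where 14.9% and 14.1% of all genes were called so (29.1% in either direction), and the median over the 42 was 0.35, beside 0.04. That test is the myotube difference minus the myoblast difference, so it restates both and is no separate support.

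**Figure D2:**
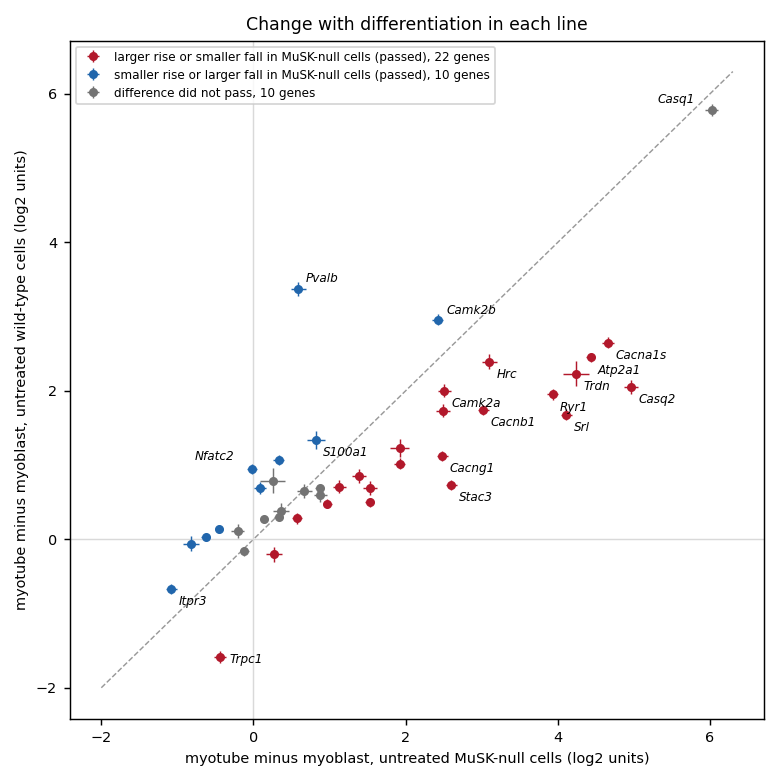
Each point is 1 of the 42 measured genes, with its log2 change from myoblast to myotube in untreated MuSK-null cells on the x axis and in untreated wild-type cells on the y axis; bars are SE, and the dashed line marks equal change. Red points (22 genes) lie where the change was more positive in MuSK-null cells, blue points (10 genes) where it was less positive, and grey points (10 genes) did not pass the test of the difference.

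Promoter sequences were read for those of the 42 genes that had one on record. Of the 42 measured genes 27 were found in the RefSeq promoter table (GRCm38.p6), with 34 promoters between them. Sequences are shown for 5 members with large changes, each as the 250 bases before the RefSeq start, 5′ to 3′ along the gene, in lower case. Capitals mark matches to CANNTG, the core of the E-box that MyoD-family factors bind, and to the site of MEF2, a factor that acts with them. Casq1, on the minus strand at chr1:172219896-172220145, rose more than any other member in both lines:
Casq1: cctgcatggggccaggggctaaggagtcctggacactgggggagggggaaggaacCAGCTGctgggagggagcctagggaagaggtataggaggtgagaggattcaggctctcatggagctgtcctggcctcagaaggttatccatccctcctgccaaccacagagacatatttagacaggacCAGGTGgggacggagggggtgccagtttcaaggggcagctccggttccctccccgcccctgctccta
Casq2, on the plus strand at chr3:102086165-102086414, had the largest genotype difference in myoblasts, and its stretch holds a MEF2 match 69 bases before the start:
Casq2: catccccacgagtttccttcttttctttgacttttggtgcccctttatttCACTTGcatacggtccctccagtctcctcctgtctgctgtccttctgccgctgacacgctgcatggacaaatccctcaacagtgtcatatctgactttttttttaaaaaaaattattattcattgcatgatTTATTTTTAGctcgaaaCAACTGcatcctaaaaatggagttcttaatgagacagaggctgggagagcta
Cacna1s, on the plus strand at chr1:136052561-136052810, encodes the voltage sensor:
Cacna1s: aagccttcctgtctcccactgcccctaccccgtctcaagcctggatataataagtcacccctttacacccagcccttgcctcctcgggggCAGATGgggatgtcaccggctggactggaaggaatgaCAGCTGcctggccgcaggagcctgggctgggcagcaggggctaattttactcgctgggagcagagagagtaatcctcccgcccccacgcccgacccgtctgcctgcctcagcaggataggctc
Atp2a1, on the minus strand at chr7:126463074-126463323, encodes the main calcium pump of fast muscle:
Atp2a1: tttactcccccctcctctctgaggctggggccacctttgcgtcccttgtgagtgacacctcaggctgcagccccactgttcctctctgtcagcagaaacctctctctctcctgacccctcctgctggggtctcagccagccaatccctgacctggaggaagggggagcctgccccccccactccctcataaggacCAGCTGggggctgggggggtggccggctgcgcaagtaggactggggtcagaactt
Pvalb, on the minus strand, has 2 promoters in the table, and the one shown, with a MEF2 match 180 bases before the start, lies at chr15:78206401-78206650:
Pvalb: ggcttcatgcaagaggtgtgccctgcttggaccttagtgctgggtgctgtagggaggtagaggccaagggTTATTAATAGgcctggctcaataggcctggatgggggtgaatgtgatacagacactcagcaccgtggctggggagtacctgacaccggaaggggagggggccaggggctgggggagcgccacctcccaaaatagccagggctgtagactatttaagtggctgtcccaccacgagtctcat
The letters CANNTG, which read the same on both strands, occurred in 61.8% of the 34 member promoters and in 66.2% of all 32851 promoters of that length. CAGCTG, 1 form of it, was found in 23.5% against 13.0%, and CACCTG, another form, searched on both strands, in 11.8% against 17.2%. The 2 promoters of Jph2 overlap and share the same CAGCTG, which was counted for each of them. The MEF2 site, also searched on both strands, was present in 2 of the 34 (5.88%), those of Casq2 and Pvalb just shown, against 2.92% of all promoters. The mean count of CANNTG was 0.76 per member promoter and 1.16 over all promoters. The 5 sequences shown were picked, and all hold a match. Ryr1 and Camk2b, which also had large changes, have no match to CANNTG or the MEF2 site in their stretches. These are counts of letters in a window, not of bound sites, and no link to the changes was tested.

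The voltage sensor complex rose in both lines, by more in MuSK-null cells for each of its 5 measured subunits. Cacna1s, its pore-forming subunit, gave log2 signals of 12.24, 12.25 and 12.38 in MuSK-null myotubes, against 7.48, 7.65 and 7.78 in MuSK-null myoblasts. Wild-type myotubes gave 12.51, 12.55 and 12.58, against 9.81, 9.90 and 9.99 in wild-type myoblasts. The stages were far apart in both lines, and MuSK-null arrays lay below wild-type arrays at both stages. Cacna1s rose by 4.66 log2 units without MuSK (SE 0.08, adjusted p = 6.81e-23). It rose by 2.65 in wild-type cells (SE 0.08, adjusted p = 5.09e-18). Its genotype difference was -2.27 in myoblasts (SE 0.08, adjusted p = 7.84e-17) and -0.25 in myotubes (SE 0.08, adjusted p = 0.0097). Stac3, the adaptor that carries the channel to the junction, gave log2 signals of 10.68, 10.76 and 10.77 in MuSK-null myotubes, against 8.06, 8.14 and 8.23 in MuSK-null myoblasts. Wild-type myotubes gave 10.79, 10.80 and 10.90, against 10.02, 10.12 and 10.14 in wild-type myoblasts. Its arms did not overlap with stage in either line, and its rise of 2.60 log2 units without MuSK exceeded that of 0.73 in wild-type cells by 1.86 (SE 0.10, adjusted p = 6.9e-13). Cacnb1, the β subunit that positions the channel, Cacng1, a γ subunit, and Cacna2d1, the α2δ subunit, rose by 3.02, 2.48 and 1.92 in MuSK-null cells. In wild-type cells they rose by 1.74, 1.12 and 1.23. All 5 subunits were lower in MuSK-null than in wild-type myoblasts, by log2 differences of -2.27 to -0.66. In myotubes Cacna1s was the 1 of the 5 that was called, and the log2 differences of the other 4 ran from -0.14 for Cacnb1 to 0.03 for Cacna2d1.

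Release channels split by family: both ryanodine receptors rose with differentiation, and inositol trisphosphate receptors did not. Ryr1, the release channel of skeletal muscle, gave log2 signals of 11.75, 11.75 and 11.76 in MuSK-null myotubes, against 7.75, 7.81 and 7.92 in MuSK-null myoblasts. Wild-type myotubes gave 12.30, 12.33 and 12.42, against 10.28, 10.38 and 10.52 in wild-type myoblasts. Arrays of each group stood clear of every other group's. Ryr1 rose by 3.93 in MuSK-null cells (SE 0.07, adjusted p = 2.62e-22) and by 1.95 in wild-type cells (SE 0.07, adjusted p = 1.75e-16). It was lower without MuSK in myoblasts, at a log2 difference of -2.57, and in myotubes, at -0.59 (SE 0.07, adjusted p = 2.56e-07). Ryr3, a release channel best known from developing muscle, rose by 1.53 in MuSK-null and 0.50 in wild-type cells. Its genotype difference was -1.16 in myoblasts and -0.14 in myotubes (adjusted p = 0.0812). Itpr3, a receptor that opens to inositol trisphosphate, gave log2 signals of 9.31, 9.42 and 9.59 in MuSK-null myotubes, against 10.49, 10.53 and 10.54 in MuSK-null myoblasts. Wild-type myotubes gave 9.50, 9.56 and 9.56, against 10.19, 10.20 and 10.23 in wild-type myoblasts. Its myotube arrays were below its myoblast arrays in both lines, and it fell by 1.08 in MuSK-null cells (SE 0.07, adjusted p = 2.34e-12) and fell by 0.67 in wild-type cells (SE 0.07, adjusted p = 8.08e-09). Itpr2, its paralogue, gave log2 signals of 8.81, 8.84 and 9.04 in MuSK-null myotubes, against 9.48, 9.52 and 9.59 in MuSK-null myoblasts. Wild-type myotubes gave 9.04, 9.06 and 9.10, against 8.96, 9.00 and 9.15 in wild-type myoblasts. The MuSK-null myoblast arrays were above those of the other 3 groups. Itpr2 fell by 0.63 in MuSK-null cells (SE 0.06, adjusted p = 1.94e-08), with a change of 0.03 in wild-type cells (adjusted p = 0.746). Without MuSK both were higher in myoblasts, by log2 differences of 0.49 for Itpr2 and 0.31 for Itpr3. In myotubes Itpr2 was lower by a log2 difference of -0.17 (adjusted p = 0.0429), a call that was lost without any 1 array other than untreated MuSK-null myotube array 2 (adjusted p up to 0.189).

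Proteins of the junction rose in both lines, as the voltage sensor did, except for Asph. Trdn, triadin, which anchors calsequestrin to the ryanodine receptor, gave log2 signals of 13.07, 13.15 and 13.16 in MuSK-null myotubes, against 8.81, 8.87 and 8.98 in MuSK-null myoblasts. Wild-type myotubes gave 13.34, 13.45 and 13.55, against 10.82, 11.33 and 11.52 in wild-type myoblasts. Stages were apart in both lines, and the MuSK-null myoblast arrays were the lowest of these 4 groups. Trdn rose by 4.24 in MuSK-null (SE 0.17, adjusted p = 7.18e-16) and 2.23 in wild-type cells (SE 0.17, adjusted p = 8.36e-11). It was lower in MuSK-null myoblasts by a log2 difference of -2.34 (SE 0.17, adjusted p = 7.46e-11). Its 19 probe sets, each tested for itself, all rose with differentiation in both lines, by 1.69 to 5.22 in MuSK-null cells and 1.59 to 3.46 in wild-type cells. Of the 19, 17 were called lower in MuSK-null myoblasts, with differences over all 19 from -3.03 to -0.17. Jph1 and Jph2, the junctophilins, rose by 2.49 and 1.39 in MuSK-null cells and by 1.73 and 0.85 in wild-type cells. Bin1, which bends the tubule membrane, rose by 0.97 without MuSK and 0.48 in wild-type cells. All 3 were lower in MuSK-null myoblasts, by log2 differences of -0.88, -0.77 and -0.54. None was called in myotubes, with log2 differences of -0.12, -0.22 and -0.05 and adjusted p of 0.31, 0.0667 and 0.564. Jsrp1, a junctional protein that binds the voltage sensor, rose by 0.88 without MuSK and 0.59 in wild-type cells. Its lower level in MuSK-null myoblasts (log2 difference -0.36, adjusted p = 0.00431) was -0.23 and no longer called without untreated MuSK-null myoblast array 1 (adjusted p up to 0.0536). Asph, whose locus encodes the junctional protein junctin as well as a hydroxylase, gave log2 signals of 9.92, 9.93 and 10.00 in MuSK-null myotubes, against 10.37, 10.41 and 10.42 in MuSK-null myoblasts. Wild-type myotubes gave 10.24, 10.30 and 10.30, against 10.12, 10.15 and 10.16 in wild-type myoblasts. The genotype order turned between stages. MuSK-null arrays were above wild-type arrays in myoblasts, by a log2 difference of 0.26, and below them in myotubes, at -0.33 (SE 0.05, adjusted p = 3.4e-05). It fell by 0.45 without MuSK (SE 0.05, adjusted p = 2.93e-07), and its rise of 0.14 in wild-type cells (adjusted p = 0.0469) was lost without any 1 of its 6 arrays (adjusted p up to 0.12).

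Calcium-binding proteins of the reticulum lumen and the cytosol rose in both lines, 6 of 6. They include Casq1, the gene of the 42 with the largest rise, and Pvalb, whose rise in wild-type cells exceeded that in MuSK-null cells by more than for any other of the 42. Casq1, the calsequestrin of fast fibres, gave log2 signals of 12.73, 12.74 and 12.79 in MuSK-null myotubes, against 6.66, 6.75 and 6.80 in MuSK-null myoblasts. Wild-type myotubes gave 13.43, 13.43 and 13.45, against 7.51, 7.59 and 7.87 in wild-type myoblasts. Both lines lay low as myoblasts and high as myotubes, with MuSK-null arrays below wild-type arrays at each stage. Its rise was 6.02 without MuSK (SE 0.08, adjusted p = 1.07e-23) and 5.78 in wild type (SE 0.08, adjusted p = 5.32e-23). The MuSK-null myoblast signals of Casq1 lay below the array medians, so its rise there is from a level not shown to be above background. Their difference of 0.25 was not called (adjusted p = 0.118). Genotype differences of Casq1 were -0.92 in myoblasts (SE 0.08, adjusted p = 3.1e-09) and -0.68 in myotubes (SE 0.08, adjusted p = 3.68e-07). Casq2, the calsequestrin of heart and slow fibres, gave log2 signals of 12.49, 12.49 and 12.55 in MuSK-null myotubes, against 7.44, 7.60 and 7.63 in MuSK-null myoblasts. Wild-type myotubes gave 12.49, 12.53 and 12.54, against 10.23, 10.39 and 10.78 in wild-type myoblasts. Myotube arrays of both lines overlapped, while its MuSK-null myoblast arrays lay far below the wild-type ones. The log2 difference was -2.91 in myoblasts (SE 0.09, adjusted p = 3.95e-17) and -0.01 in myotubes (adjusted p = 0.963). The rise of 4.96 in MuSK-null cells exceeded that of 2.05 in wild-type cells by 2.91 (SE 0.13, adjusted p = 6.83e-14).

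Srl, sarcalumenin, another luminal calcium-binding protein, gave log2 signals of 12.96, 12.97 and 12.99 in MuSK-null myotubes, against 8.81, 8.89 and 8.89 in MuSK-null myoblasts. Wild-type myotubes gave 13.39, 13.41 and 13.42, against 11.66, 11.66 and 11.87 in wild-type myoblasts. No 2 of these groups overlapped, and its rise without MuSK (4.11) exceeded the wild-type rise (1.68) by 2.43 (SE 0.10, adjusted p = 2.17e-14). Srl was lower without MuSK at both stages, by log2 differences of -2.86 in myoblasts and -0.43 in myotubes. Hrc, a histidine-rich luminal protein that binds triadin, rose by 3.10 in MuSK-null and 2.39 in wild-type cells. It was lower without MuSK in myoblasts (-1.28) and in myotubes (-0.57). Pvalb, parvalbumin, the soluble calcium buffer of fast fibres, gave log2 signals of 7.02, 7.12 and 7.16 in MuSK-null myotubes, against 6.31, 6.57 and 6.63 in MuSK-null myoblasts. Wild-type myotubes gave 9.77, 10.04 and 10.09, against 6.44, 6.61 and 6.74 in wild-type myoblasts. Wild-type myotubes stood alone at the high level, and the myoblast arrays of both lines overlapped. Outside wild-type myotubes the Pvalb signals lay below the array medians, a level not shown to be above background. The rise was 0.59 without MuSK (SE 0.10, adjusted p = 1.68e-05) and 3.37 in wild-type cells (SE 0.10, adjusted p = 4.63e-18), a difference of -2.77 (SE 0.14, adjusted p = 2.29e-13). In myotubes Pvalb was lower without MuSK by a log2 difference of -2.87 (SE 0.10, adjusted p = 9.57e-17), whereas in myoblasts the difference was -0.10 (adjusted p = 0.542). S100a1, a calcium sensor that binds the ryanodine receptor, gave log2 signals of 10.87, 11.13 and 11.15 in MuSK-null myoblasts, against 10.05, 10.34 and 10.37 in wild-type myoblasts. Those arms did not overlap, and S100a1 was the only gene of this role that was higher in MuSK-null myoblasts (log2 difference 0.80, SE 0.12, adjusted p = 1.5e-05). In myotubes the difference was 0.28 (adjusted p = 0.0779). S100a1 rose with differentiation by 0.82 in MuSK-null and 1.34 in wild-type cells.

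**Figure D3:**
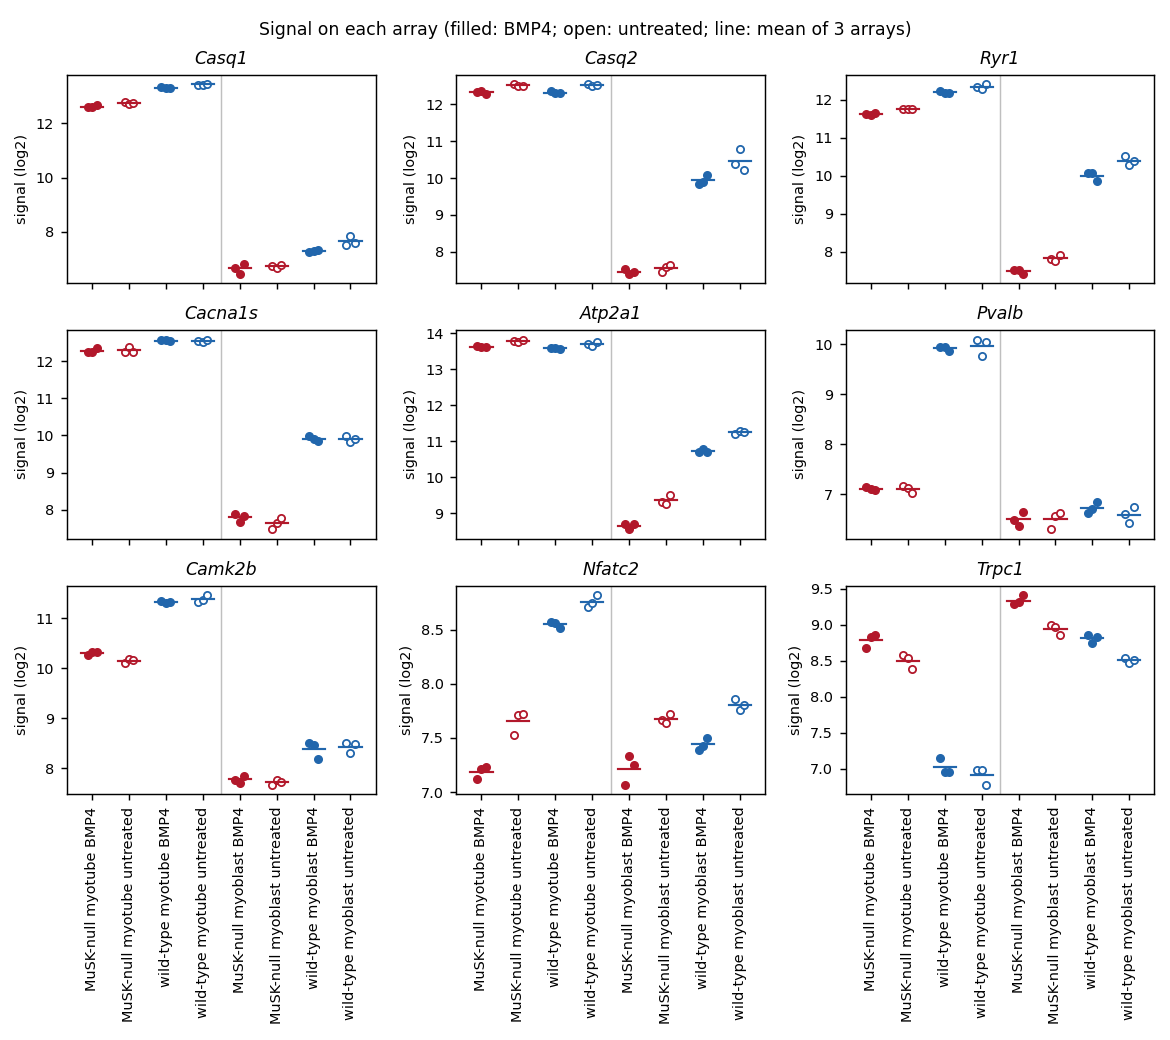
Log2 signal of 9 genes on each of the 24 arrays, by group, with filled points for BMP4-treated and open points for untreated cells, red for MuSK-null and blue for wild type; lines are means of 3 arrays, and each panel has its own axis that does not start at 0. Casq1 is low in all myoblasts, Casq2 is lowest in MuSK-null myoblasts alone, Pvalb is high in wild-type myotubes alone and Trpc1 is lowest in wild-type myotubes.

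Among pumps and exchangers, both sarcoplasmic pumps rose in both lines, and Sln rose in wild-type cells. Atp2a1, the pump SERCA1 of fast fibres, gave log2 signals of 13.76, 13.77 and 13.82 in MuSK-null myotubes, against 9.25, 9.30 and 9.51 in MuSK-null myoblasts. Wild-type myotubes gave 13.64, 13.70 and 13.74, against 11.21, 11.24 and 11.29 in wild-type myoblasts. MuSK-null myoblasts lay below wild-type myoblasts, and MuSK-null myotubes just above wild-type myotubes. The log2 difference was -1.89 in myoblasts (SE 0.06, adjusted p = 5.7e-17) and 0.09 in myotubes (adjusted p = 0.271). Its rises were 4.43 without MuSK and 2.45 in wild-type cells. Atp2a2, SERCA2, the pump of slow fibres and of non-muscle cells, rose by 1.13 without MuSK and 0.71 in wild-type cells. It was lower in MuSK-null myoblasts by a log2 difference of -0.69. Its myotube difference of -0.28 (adjusted p = 0.016) was -0.12 and not called after quantile normalization (adjusted p = 0.321). Atp2b1, a pump of the surface membrane, rose by 0.57 without MuSK and 0.28 in wild-type cells. It was higher in MuSK-null myotubes by a log2 difference of 0.19 (adjusted p = 0.0357), a call lost without any 1 array other than untreated wild-type myotube array 2 (adjusted p up to 0.136). Sln, sarcolipin, a small inhibitor of SERCA, gave log2 signals of 6.41, 6.64 and 6.81 in MuSK-null myotubes, against 7.09, 7.42 and 7.80 in wild-type myotubes. The arms did not overlap. Sln rose with differentiation by 0.79 in wild-type cells (SE 0.17, adjusted p = 0.000565), and its change without MuSK was 0.25 (adjusted p = 0.285). In myotubes it was lower without MuSK by a log2 difference of -0.81 (SE 0.17, adjusted p = 0.000603), and the difference was -0.27 in myoblasts (adjusted p = 0.283). Pln, phospholamban, the SERCA inhibitor of heart and slow fibres, rose by 0.36 in MuSK-null and 0.38 in wild-type cells. The first call was lost without untreated MuSK-null myoblast array 1 or untreated MuSK-null myotube array 3 (adjusted p up to 0.0858), and the second without untreated wild-type myoblast array 3 (adjusted p up to 0.0546). Group means ran from 6.07 to 6.64 for Pln and from 6.21 to 7.44 for Sln, highest for Sln in wild-type myotubes. Both sets of means lay near or below the array medians, a level not shown to be above background. Slc8a1, a sodium-calcium exchanger known from the heart, was higher without MuSK in myoblasts (0.41) and in myotubes (0.44, SE 0.06, adjusted p = 2.38e-06). Its signals were 7.49, 7.66 and 7.66 in MuSK-null myotubes, against 7.11, 7.14 and 7.23 in wild-type myotubes. Its fall with differentiation in wild-type cells (-0.16, adjusted p = 0.0323) was lost without any 1 array other than untreated wild-type myotube array 3 and untreated wild-type myoblast array 2 (adjusted p up to 0.122). The other Slc8a1 probe set, tested for itself, had a log2 change of -0.43 there (adjusted p = 0.00268). Slc8a3, the paralogue of Slc8a1, went the other way between genotypes at both stages, with log2 differences of -0.38 in myoblasts (adjusted p = 0.00475, arms overlapping) and -0.37 in myotubes (adjusted p = 0.00571). It rose by 0.67 without MuSK and 0.65 in wild type.

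Of the store-operated entry genes, Stim1, the calcium sensor of the reticulum, and Orai1, the channel it opens, rose in both lines. The rises were 1.92 and 1.53 in MuSK-null cells and 1.02 and 0.69 in wild-type cells. Both were lower in MuSK-null myoblasts, by log2 differences of -0.83 and -0.78. Their differences were 0.07 and 0.06 in myotubes (adjusted p = 0.524 and 0.664). Trpc1, a cation channel of the surface membrane, ran against them, with log2 signals of 8.38, 8.54 and 8.58 in MuSK-null myotubes, against 8.86, 8.97 and 8.99 in MuSK-null myoblasts. Wild-type myotubes gave 6.78, 6.98 and 6.98, against 8.47, 8.51 and 8.53 in wild-type myoblasts. Wild-type myotubes were far below the other groups. Trpc1 fell by 0.44 without MuSK (SE 0.08, adjusted p = 3.83e-05) and fell by 1.59 in wild-type cells (SE 0.08, adjusted p = 2.85e-14). It was higher without MuSK by log2 differences of 0.44 in myoblasts and 1.59 in myotubes (SE 0.08, adjusted p = 5.58e-14).

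The 4 calmodulin kinase II genes differed from each other. Camk2b, a muscle-rich isoform, gave log2 signals of 10.10, 10.16 and 10.19 in MuSK-null myotubes, against 7.68, 7.74 and 7.77 in MuSK-null myoblasts. Wild-type myotubes gave 11.33, 11.37 and 11.46, against 8.30, 8.49 and 8.50 in wild-type myoblasts. MuSK-null arrays were below wild-type arrays at both stages, and here the gap was wider in myotubes, with log2 differences of -0.70 in myoblasts and -1.24 in myotubes (SE 0.07, adjusted p = 4.21e-12). Its rises were 2.42 without MuSK and 2.96 in wild-type cells, and differed by -0.54 (SE 0.11, adjusted p = 0.000336). Camk2a, whose muscle transcript also encodes a kinase-anchoring protein of the reticulum, rose by 2.51 without MuSK and 2.00 in wild type. It was lower in MuSK-null myoblasts (-0.53), with a log2 difference of -0.03 in myotubes (adjusted p = 0.853). Camk2d, found in most tissues, gave log2 signals of 11.41, 11.45 and 11.47 in MuSK-null myotubes, against 11.03, 11.12 and 11.18 in MuSK-null myoblasts. Wild-type myotubes gave 11.77, 11.78 and 11.81, against 10.58, 10.73 and 10.82 in wild-type myoblasts. Like Asph it changed order between stages, higher without MuSK in myoblasts (0.40) and lower in myotubes (-0.34, SE 0.07, adjusted p = 0.000313). Camk2g had a log2 change of 0.09 in MuSK-null cells (adjusted p = 0.387) and rose by 0.69 in wild-type cells. It was lower in MuSK-null myotubes by a log2 difference of -0.60.

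Calcineurin subunits had small rises, while the NFAT genes differed from each other. Ppp3ca and Ppp3cb, the catalytic subunits, had log2 changes between 0.14 and 0.33 with differentiation, and neither was called between genotypes at either stage. The smallest of these, for Ppp3ca in MuSK-null cells (0.14, adjusted p = 0.0377), was lost without any 1 array other than untreated MuSK-null myotube array 3 (adjusted p up to 0.156). Rcan1, a calcineurin inhibitor that is itself induced by calcineurin, rose by 0.87 without MuSK and 0.69 in wild type. It was lower without MuSK in myoblasts (-0.57) and in myotubes (-0.39). Nfatc2 gave log2 signals of 7.53, 7.71 and 7.72 in MuSK-null myotubes, against 7.64, 7.67 and 7.72 in MuSK-null myoblasts. Wild-type myotubes gave 8.71, 8.75 and 8.82, against 7.76, 7.80 and 7.86 in wild-type myoblasts. The high group was wild-type myotubes. The log2 change of Nfatc2 was -0.02 without MuSK (adjusted p = 0.847) and 0.95 in wild-type cells (SE 0.07, adjusted p = 3.76e-11), and its myotube genotype difference was -1.11 (SE 0.07, adjusted p = 5.09e-12). Nfatc1 gave log2 signals of 8.73, 8.74 and 8.85 in MuSK-null myotubes, against 9.49, 9.62 and 9.66 in MuSK-null myoblasts. Wild-type myotubes gave 8.96, 9.01 and 9.14, against 8.91, 9.16 and 9.22 in wild-type myoblasts. MuSK-null myoblasts were highest, and Nfatc1 fell by 0.82 there (SE 0.10, adjusted p = 5.79e-07), with -0.06 in wild-type cells (adjusted p = 0.689). Its genotype difference was 0.49 in myoblasts and -0.26 in myotubes (adjusted p = 0.0492). The myotube call was lost without any 1 array other than untreated MuSK-null myotube array 2 (adjusted p up to 0.174).

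Nfatc4 was higher without MuSK at both stages, with log2 signals of 8.51, 8.60 and 8.61 in MuSK-null myoblasts, against 7.00, 7.03 and 7.03 in wild-type myoblasts. MuSK-null myotubes gave 8.32, 8.37 and 8.40, against 7.04, 7.13 and 7.22 in wild-type myotubes. All MuSK-null arrays were above all wild-type arrays, by 1.55 in myoblasts (SE 0.09, adjusted p = 7.62e-13) and 1.24 in myotubes (SE 0.09, adjusted p = 4.31e-11). No change with differentiation was called in either line (adjusted p = 0.0545 without MuSK and 0.335 in wild-type cells). Nfatc3 gave log2 signals of 11.83, 11.83 and 11.84 in MuSK-null myotubes, against 11.33, 11.34 and 11.41 in wild-type myotubes. Those arms did not overlap, with a log2 difference of 0.47 (SE 0.10, adjusted p = 0.000674) and of 0.00 in myoblasts. Its rise of 0.27 without MuSK was lost without any 1 array other than untreated MuSK-null myoblast array 1 and untreated MuSK-null myoblast array 3 (adjusted p up to 0.177). In wild-type cells its change of -0.20 (adjusted p = 0.128) became -0.32 without the 4 arrays that deviate together (adjusted p = 0.000117). Those arrays were picked for how they deviate, so the smaller p is no support for a fall.

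**Figure D4:**
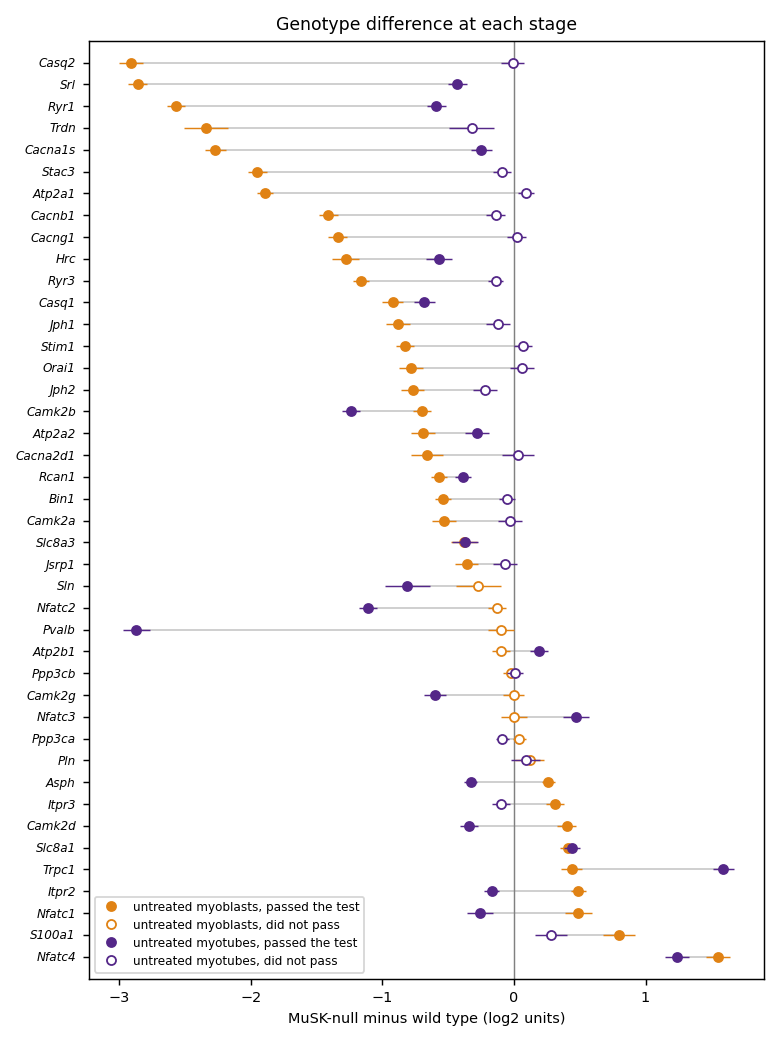
Log2 difference between MuSK-null and wild-type cells for the 42 genes, in untreated myoblasts (orange) and untreated myotubes (purple), with SE; filled points passed the test, and genes run from the largest deficit in MuSK-null myoblasts at the top. Casq2, Srl, Ryr1 and Trdn lie between -2.91 and -2.34 in myoblasts and between -0.59 and -0.01 in myotubes, while Pvalb and Trpc1 are far from 0 in myotubes.

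With BMP4, several genes of the machinery fell in myoblasts of both lines, and each called change was under 1 log2 unit in size. Of the 42 genes 8 fell and 3 rose in MuSK-null myoblasts, where 4.52% of all genes fell and 3.89% rose (8.42% in either direction). With those groups fitted alone 5 fell and 1 rose, and without BMP4-treated MuSK-null myoblast array 1 the 11 calls became 7. In wild-type myoblasts 12 fell and 1 rose, where 5.76% fell and 5.21% rose (11.0% in either direction). The median log2 change was -0.01 in MuSK-null myoblasts, beside 0.02 over all genes, and -0.08 in wild-type myoblasts, beside 0.00. Id1, a direct BMP target read as a check of the treatment, rose by 0.99 without MuSK (SE 0.07, adjusted p = 1.25e-09) and by 2.44 in wild-type myoblasts (SE 0.07, adjusted p = 4.1e-16). Markers of differentiated myotubes fell as well, 5 of 10 in MuSK-null and 3 of 10 in wild-type myoblasts. Myog, the myogenic factor that drives differentiation, had log2 changes of -0.67 without MuSK and -0.44 in wild type.

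Atp2a1, Bin1, Nfatc2, Ryr1, Srl and Trdn fell in both lines, and Trpc1 rose in both. Atp2a1 gave log2 signals of 8.56, 8.69 and 8.69 in treated MuSK-null myoblasts, against 9.25, 9.30 and 9.51 in untreated ones. Treated wild-type myoblasts gave 10.69, 10.70 and 10.77, against 11.21, 11.24 and 11.29 in untreated ones. Treated arrays were below untreated arrays in each line, and Atp2a1 had log2 changes of -0.71 without MuSK (SE 0.06, adjusted p = 1.81e-08) and -0.53 in wild type (SE 0.06, adjusted p = 1.1e-06). Bin1 gave log2 signals of 11.25, 11.32 and 11.45 in treated MuSK-null myoblasts, against 11.93, 11.98 and 12.12 in untreated ones. Treated wild-type myoblasts gave 12.04, 12.05 and 12.07, against 12.54, 12.55 and 12.56 in untreated ones. Here too the arms were apart, and Bin1 had log2 changes of -0.67 without MuSK (SE 0.06, adjusted p = 1.08e-08) and -0.50 in wild type (SE 0.06, adjusted p = 8.94e-07). Nfatc2 gave log2 signals of 7.07, 7.25 and 7.33 in treated MuSK-null myoblasts, against 7.64, 7.67 and 7.72 in untreated ones. Treated wild-type myoblasts gave 7.39, 7.43 and 7.50, against 7.76, 7.80 and 7.86 in untreated ones. The arms did not overlap, with log2 changes of -0.46 without MuSK and -0.37 in wild type. Ryr1 and Srl had log2 changes of -0.34 and -0.35 in MuSK-null myoblasts and of -0.40 and -0.40 in wild-type myoblasts. For Trdn, treated MuSK-null myoblasts gave 7.88, 8.41 and 8.69, against 8.81, 8.87 and 8.98 in untreated ones. In wild type it gave 10.47, 10.78 and 10.88 in treated myoblasts, against 10.82, 11.33 and 11.52 in untreated ones, with overlap. The log2 change of Trdn was -0.56 without MuSK (adjusted p = 0.0361), a call lost without any 1 array other than BMP4-treated MuSK-null myoblast array 3 (adjusted p up to 0.246). In wild type it was -0.51 (adjusted p = 0.0481), a call lost without any 1 array other than untreated wild-type myoblast array 2 and BMP4-treated wild-type myoblast array 2 (adjusted p up to 0.276). Of its 19 probe sets 6 were called lower in MuSK-null and 3 in wild-type myoblasts, and they ran both ways. The log2 changes were -1.18 to 0.37 without MuSK, with a median of -0.09, and -0.70 to 0.07 in wild type, with a median of -0.45. Trpc1 gave log2 signals of 9.28, 9.31 and 9.41 in treated MuSK-null myoblasts, against 8.86, 8.97 and 8.99 in untreated ones. Treated wild-type myoblasts gave 8.74, 8.83 and 8.86, against 8.47, 8.51 and 8.53 in untreated ones. Treated arrays were the higher ones, with rises of 0.40 without MuSK (SE 0.08, adjusted p = 0.000801) and 0.31 in wild type (SE 0.08, adjusted p = 0.00601). The wild-type rise had an adjusted p = 0.085 without the 4 arrays that deviate together.

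Further calls came in 1 line only, and whether the lines differed was a separate test. In MuSK-null myoblasts Cacng1 and Atp2b1 fell, with log2 changes of -0.38 and -0.30, while Jsrp1 and Nfatc1 rose by 0.38 and 0.34. The call of Atp2b1 was lost without untreated MuSK-null myoblast array 2 or BMP4-treated MuSK-null myoblast array 1 (adjusted p up to 0.0563), and that of Jsrp1 without untreated MuSK-null myoblast array 1 or BMP4-treated MuSK-null myoblast array 1 (adjusted p up to 0.102). That of Nfatc1 was lost without any 1 array other than BMP4-treated MuSK-null myoblast array 2 (adjusted p up to 0.216). In wild-type myoblasts Casq2, Camk2a, Casq1, Ryr3 and Stac3 fell, with log2 changes of -0.53, -0.52, -0.36, -0.36 and -0.35. Ppp3ca fell by 0.18, a call lost without any 1 array other than untreated wild-type myoblast array 3 (adjusted p up to 0.174). Casq2, the largest of these, gave 7.41, 7.44 and 7.53 in treated MuSK-null myoblasts, against 7.44, 7.60 and 7.63 in untreated ones. In wild type Casq2 gave 9.84, 9.89 and 10.07 in treated myoblasts, against 10.23, 10.39 and 10.78 in untreated ones. MuSK-null arms overlapped at a low level and wild-type arms were apart, and the difference between the responses, 0.44, was not called (adjusted p = 0.0992). Camk2a gave 7.46, 7.55 and 7.61 in treated wild-type myoblasts, against 7.79, 8.12 and 8.25 in untreated ones. Its MuSK-null change of -0.28 (adjusted p = 0.0513) did not pass, nor did the difference between lines, 0.24 (adjusted p = 0.545). Jsrp1 was the 1 gene of the 42 whose myoblast response differed between lines, where 1.17% of all genes were more positive without MuSK and 1.22% less (2.39% in either direction). Its log2 signals were 8.88, 8.89 and 9.00 in treated MuSK-null myoblasts, against 8.27, 8.58 and 8.76 in untreated ones. In wild type they were 8.64, 8.65 and 8.67 in treated myoblasts, against 8.81, 8.86 and 9.02 in untreated ones. Treated arrays were above untreated arrays without MuSK and below them in wild type, where the change of -0.24 was not called (adjusted p = 0.12). The difference of 0.63 (SE 0.13, adjusted p = 0.00826) did not pass without the 4 arrays that deviate together (adjusted p = 0.0617) or with the 4 myoblast groups fitted alone (adjusted p = 0.0525).

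In myotubes fewer of these genes were called with BMP4. In MuSK-null myotubes 7 of 42 fell and 2 rose, where 5.90% of all genes fell and 5.36% rose (11.3% in either direction). With those groups fitted alone 3 fell and 1 rose. The 9 calls became 4 without BMP4-treated MuSK-null myotube array 2 and 5 without untreated MuSK-null myotube array 2. In wild-type myotubes 3 fell and 2 rose, where 4.37% fell and 4.40% rose (8.77% in either direction), so their share of the 42 was near that background. Without untreated wild-type myotube array 2 those 5 calls became 3. With arrays centred on their medians 2 rose and 5 fell in wild-type myotubes. Id1 rose by 2.19 in MuSK-null and 2.05 in wild-type myotubes. Atp2a1, Bin1, Ryr1, Srl and Trdn, which fell in myoblasts, had log2 changes from -0.17 to -0.08 in both lines, and none was called. Camk2a and Ryr3 fell in both lines. Camk2a gave log2 signals of 9.37, 9.39 and 9.47 in treated MuSK-null myotubes, against 10.01, 10.03 and 10.06 in untreated ones. Treated wild-type myotubes gave 9.47, 9.55 and 9.67, against 10.04, 10.05 and 10.09 in untreated ones. Treated arrays lay below untreated arrays in both lines, and Camk2a had log2 changes of -0.62 without MuSK (SE 0.09, adjusted p = 1.61e-05) and -0.49 in wild type (SE 0.09, adjusted p = 0.000423). The MuSK-null change of Ryr3 was -0.20 (adjusted p = 0.0361), a call lost without any 1 array other than untreated MuSK-null myotube array 1 and BMP4-treated MuSK-null myotube array 3 (adjusted p up to 0.162). Ryr3 gave 8.40, 8.42 and 8.43 in treated wild-type myotubes, against 8.65, 8.70 and 8.81 in untreated ones, and fell by 0.30 there (SE 0.06, adjusted p = 0.00168).

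With BMP4 both measured sodium-calcium exchangers fell in MuSK-null myotubes and rose in wild-type myotubes. Slc8a3, the exchanger of skeletal muscle and brain, gave log2 signals of 7.02, 7.08 and 7.23 in treated MuSK-null myotubes, against 7.39, 7.41 and 7.58 in untreated ones. Treated wild-type myotubes gave 8.17, 8.24 and 8.33, against 7.71, 7.83 and 7.93 in untreated ones. Treated arrays were lower than untreated ones without MuSK and higher in wild type, with no overlap in either line. The log2 changes were -0.35 without MuSK (SE 0.10, adjusted p = 0.0237) and 0.42 in wild type (SE 0.10, adjusted p = 0.00789), and their difference was -0.77 (SE 0.14, adjusted p = 0.0023). Slc8a1 gave log2 signals of 7.33, 7.42 and 7.46 in treated MuSK-null myotubes, against 7.49, 7.66 and 7.66 in untreated ones. Treated wild-type myotubes gave 7.42, 7.47 and 7.51, against 7.11, 7.14 and 7.23 in untreated ones. It moved the same way as Slc8a3 in each line, by -0.20 without MuSK (SE 0.06, adjusted p = 0.0299) and 0.31 in wild type (SE 0.06, adjusted p = 0.00134). The difference was -0.51 (SE 0.09, adjusted p = 0.000821), and the other Slc8a1 probe set, tested for itself, gave -0.71 for it and was also called. On that probe set the wild-type rise was called (0.44, adjusted p = 0.0112), and the MuSK-null change of -0.27 was not (adjusted p = 0.155). Both differences remained called without any 1 of their 12 arrays and in every other setting tried. In myotubes the group means of Slc8a1 ran from 7.16 to 7.60, and those of Slc8a3 without MuSK were 7.11 and 7.46. These levels are near or below the array medians of 7.38 to 7.50 and were not shown to be above background. The response of Slc8a3 without MuSK was lost without untreated MuSK-null myotube array 2 or BMP4-treated MuSK-null myotube arrays 2 or 3 (adjusted p up to 0.122), and its wild-type response without untreated wild-type myotube array 2 (adjusted p up to 0.0568). That of Slc8a1 without MuSK was lost without any 1 array other than untreated MuSK-null myotube array 3 and BMP4-treated MuSK-null myotube array 3 (adjusted p up to 0.15). Itpr3 was the third and last gene whose myotube response differed, where 1.71% of all genes were less positive without MuSK and 1.50% more (3.21% in either direction). With arrays centred on their medians, 256 of all genes were less positive and 433 more, against 340 and 300 as deposited. Itpr3 gave log2 signals of 9.09, 9.13 and 9.20 in treated MuSK-null myotubes, against 9.31, 9.42 and 9.59 in untreated ones. Treated wild-type myotubes gave 9.56, 9.60 and 9.68, against 9.50, 9.56 and 9.56 in untreated ones. It fell by 0.30 without MuSK (SE 0.07, adjusted p = 0.00209), and its wild-type change was 0.07 (adjusted p = 0.64). The difference of -0.37 (adjusted p = 0.0229) was lost without untreated wild-type myotube array 2, BMP4-treated wild-type myotube array 2, untreated MuSK-null myotube array 2 or BMP4-treated MuSK-null myotube arrays 1 or 2 (adjusted p up to 0.0746). This Itpr3 difference was also not called with the myotube groups fitted alone or with arrays centred on their medians.

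Other myotube calls were Rcan1, Nfatc2, Pln and Trpc1 without MuSK and Atp2b1 in wild type. Rcan1 gave 10.24, 10.28 and 10.35 in treated MuSK-null myotubes, against 9.81, 9.89 and 9.95 in untreated ones, a rise of 0.40 (SE 0.06, adjusted p = 7.93e-05) with no overlap. Its wild-type change was 0.19 (adjusted p = 0.0771). Nfatc2 gave 7.12, 7.21 and 7.23 in treated MuSK-null myotubes, against 7.53, 7.71 and 7.72 in untreated ones, with no overlap, and fell by 0.47 (SE 0.07, adjusted p = 2.35e-05). In wild-type myotubes the change was -0.21 (adjusted p = 0.0521). For neither gene was the difference between lines called (adjusted p = 0.268 and 0.191). Trpc1 rose by 0.29 without MuSK (adjusted p = 0.0114), a call lost without untreated MuSK-null myotube array 3 or BMP4-treated MuSK-null myotube arrays 2 or 3 (adjusted p up to 0.0875). Pln gave 6.05, 6.21 and 6.50 in treated MuSK-null myotubes, against 6.59, 6.63 and 6.70 in untreated ones, apart but close and all below the array medians. It fell by 0.38 (adjusted p = 0.0298), a call lost without any 1 array other than BMP4-treated MuSK-null myotube array 1 (adjusted p up to 0.181). Atp2b1 fell by 0.23 in wild-type myotubes (adjusted p = 0.0435), a call lost without any 1 array other than untreated wild-type myotube array 3 (adjusted p up to 0.209). Over the 4 responses 22 of the 42 genes were called at least once, and 20 in none. How many of all genes were called at least once was not counted, so 22 has no background beside it. Among the 20, Jph2 and Cacna2d1 had calls on their other probe sets, each tested for itself by limma. These were -0.31 for Jph2 in MuSK-null myoblasts (adjusted p = 0.00262) and -0.21 for Cacna2d1 in wild-type myotubes (adjusted p = 0.019).

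**Figure D5:**
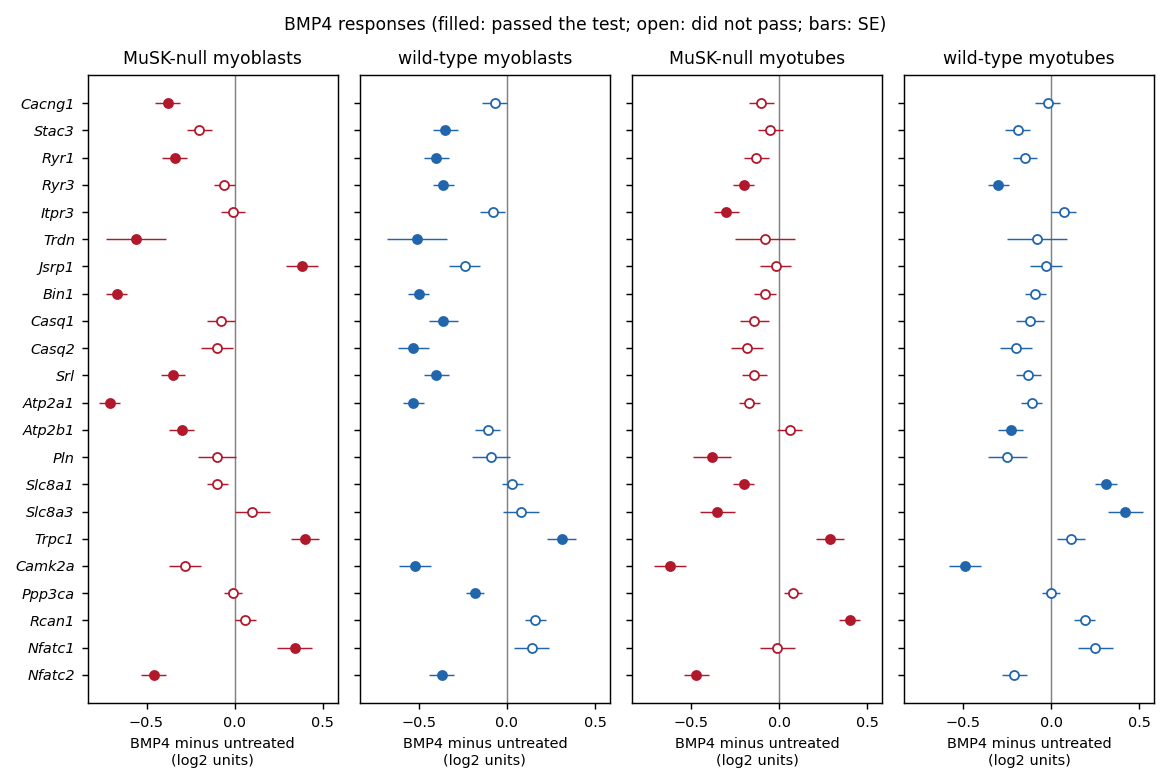
Log2 change with BMP4 (treated minus untreated, with SE) for the 22 genes called in at least 1 of the 4 responses; filled points passed the test. Most filled points in myoblasts lie left of 0, and Slc8a1 and Slc8a3 lie left of 0 in MuSK-null and right of 0 in wild-type myotubes.

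A further 79 measured genes of the same pathways, from a list of 89, were also tested. With differentiation 32 rose (40.5%) and 19 fell (24.1%) without MuSK, where 18.2% of all genes rose and 23.4% fell. In wild-type cells 30 rose (38%) and 18 fell (22.8%), where 20.3% of all genes rose and 24.7% fell. The median log2 changes over the 79 were 0.06 and 0.02. Of the 12 junction and membrane proteins among them, 10 rose and none fell in each line. Myoz2, a Z-disc protein that binds calcineurin, rose by 6.25 without MuSK and 2.79 in wild-type cells. Next without MuSK came Dhrs7c, an enzyme of the reticulum (4.14), and Mef2c (3.70). The largest falls there were Camk1d (-1.95), the calcineurin regulator Rcan2 (-1.50) and the calcium-binding protein sorcin, Sri (-1.03). In myoblasts 21 were lower without MuSK (26.6%) and 17 higher (21.5%), where 16% of all genes were lower and 15.3% higher. Myoz2 (-3.17), Mef2c (-2.16) and the muscle caveolin Cav3 (-1.86) had the lowest log2 differences, and Cacna1c, the pore of the cardiac L-type channel, the highest (1.55). In myotubes 18 were lower (22.8%) and 23 higher (29.1%), where 18.0% of all genes were lower and 19.4% higher. Cacna2d2, an α2δ subunit like Cacna2d1, gave log2 signals of 7.23, 7.26 and 7.26 in MuSK-null myotubes, against 6.75, 7.00 and 7.12 in MuSK-null myoblasts. Wild-type myotubes gave 11.54, 11.57 and 11.69, against 6.94, 7.00 and 7.20 in wild-type myoblasts. Like Pvalb it was high in wild-type myotubes alone, with a rise of 4.55 there (SE 0.11, adjusted p = 4.81e-19) and a myotube genotype difference of -4.35 (SE 0.11, adjusted p = 8.6e-19). Cacna2d1 rose in both lines and had a myotube difference of 0.03. Fxyd1, phospholemman, and Sypl2, a triad protein, were next lowest without MuSK (-1.70 and -1.30), and the surface pump Atp2b3, the T-type channel Cacna1g and Cacna1c were highest (2.08, 1.90 and 1.63).

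With BMP4 4 of the 79 rose and 4 fell in MuSK-null myoblasts (5.06% each), near the 3.89% and 4.52% of all genes. In wild-type myoblasts 5 rose (6.33%) and 9 fell (11.4%), where 5.21% of all genes rose and 5.76% fell. In MuSK-null myotubes 4 rose (5.06%) and 10 fell (12.7%), where 5.36% of all genes rose and 5.90% fell. In wild-type myotubes 3 rose (3.80%) and 7 fell (8.86%), where 4.40% of all genes rose and 4.37% fell. Orai2, a paralogue of Orai1, rose in all 4, with log2 signals of 11.20, 11.47 and 11.49 in treated MuSK-null myoblasts, against 10.46, 10.81 and 10.92 in untreated ones. Treated wild-type myoblasts gave 11.37, 11.69 and 11.72, against 10.16, 10.41 and 10.45 in untreated ones. In myotubes it gave 10.42, 10.59 and 10.65 in treated MuSK-null cells, against 10.13, 10.18 and 10.21 in untreated ones. It gave 11.47, 11.62 and 11.62 in treated wild-type cells, against 10.72, 10.81 and 10.87 in untreated ones. Treated arrays were above untreated arrays in each pair of groups, with rises of 0.66 and 1.25 in MuSK-null and wild-type myoblasts and of 0.38 and 0.77 in MuSK-null and wild-type myotubes. Its myoblast responses differed by -0.60 (adjusted p = 0.0467). Mef2a had log2 changes of -0.62 in MuSK-null and -0.51 in wild-type myoblasts. Dhrs7c had log2 changes of -0.62 in wild-type myoblasts and -0.80 in MuSK-null myotubes. Kcnj2, an inward rectifier potassium channel, was the largest fall in wild-type myotubes (-0.90), and Atp2b3 fell by 0.72 in MuSK-null myotubes, a response that differed between lines by -0.57 (SE 0.12, adjusted p = 0.00675).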

How the data were processed

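RNA from 24 samples was measured on Affymetrix whole-transcript mouse arrays. The deposited values are log2 signals, 1 per probe set and array. The submitters' processing notes name Affymetrix Expression Console and Partek, with no version or role, and no source used here gives the background correction or the normalization. Values ran from 2.50 to 15.03. The platform annotation gave 1 gene for 21789 of 35556 probe sets, several for 1621 and none for 12146, and left 19938 genes, of which 999 had several probe sets. For those the probe set with the highest mean was used. Array groups were taken from the labels.

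limma 3.58.1 in R 4.3.3 fitted 1 mean per group on all 24 arrays (lmFit and eBayes, 16 residual degrees of freedom). Comparisons were contrasts of group means, tested two-sided with p-values adjusted by the Benjamini-Hochberg method over the 19938 genes. Log2 changes are on the deposited scale. The fit was also run on simulated arrays with known changes set for the BMP4 response of wild-type myoblasts. Their errors were independent, so that run does not cover arrays that deviate together.

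The 44 genes, the further pathway genes and the cell type markers were chosen with earlier results of these data known. All 44 may be named. Values on every array are given for up to 4 called rises and 4 called falls per comparison with no overlap of groups (called alone for the differences between lines), and for genes that go against their role. Of the further pathway genes up to 3 rises and 3 falls per comparison are named.

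Replicate numbers are shared by all groups, but no label gives them a batch. Deviations of same-numbered arrays correlated at over 0.1 in all 3 pairs for the genotype difference in myoblasts (r 0.22 to 0.42) and for the BMP4 response of MuSK-null myoblasts (r 0.12 to 0.46), and not in the other comparisons. Alternatives were the compared groups fitted alone, a trended robust prior, quantile normalization, arrays centred on their median, a minimum highest group mean of 6, each probe set tested for itself, a replicate block and leaving out each array. A block for the 4 arrays that deviate together, and leaving them out, were chosen after seeing the data.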

Additional observations from a re-analysis of the deposited data

Results flagged for a closer look

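For 36 results the change differed between MuSK-null and wild-type cells by limma's test of that difference. The values below are log2 differences, the change in MuSK-null cells minus the change in wild-type cells. The first 32 are differences of the change with differentiation in untreated cells.

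Voltage sensor and ryanodine receptor genes rose by more without MuSK. The differences were 2.01 for Cacna1s, 1.86 for Stac3, 1.36 for Cacng1, 1.28 for Cacnb1 and 0.69 for Cacna2d1. Those of the ryanodine receptors were 1.97 for Ryr1 and 1.03 for Ryr3. Both inositol trisphosphate receptors had negative differences, -0.66 for Itpr2 and -0.41 for Itpr3.

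Luminal and junctional proteins ran the same way as the voltage sensor, with 2.91 for Casq2, 2.43 for Srl, 2.02 for Trdn, 0.76 for Jph1, 0.71 for Hrc, 0.55 for Jph2 and 0.49 for Bin1. Asph (-0.58), Pvalb (-2.77) and S100a1 (-0.52) had the opposite sign. That of S100a1 was not called without any 1 of 5 of its 12 arrays (adjusted p up to 0.0857). Pumps gave 1.98 for Atp2a1, 0.41 for Atp2a2 and 0.29 for Atp2b1, the last not called without any 1 of 7 of its 12 arrays (adjusted p up to 0.0819). Store-operated entry genes gave 0.89 for Stim1 and 0.84 for Orai1. Trpc1 (1.15) fell in both lines and fell by less without MuSK.

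Among calmodulin kinase and NFAT genes the sign was mixed. The differences were 0.50 for Camk2a, -0.54 for Camk2b, -0.74 for Camk2d and -0.60 for Camk2g. For the NFAT genes they were -0.76 for Nfatc1, -0.97 for Nfatc2 and 0.47 for Nfatc3, the last not called without any 1 of 3 of its 12 arrays (adjusted p up to 0.0524).

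With BMP4, the response of Jsrp1 in myoblasts differed by 0.63, where 2.39% of all genes were called in either direction. The Jsrp1 difference did not pass with the 4 myoblast groups fitted alone or without the 4 arrays that deviate together. In myotubes the responses differed by -0.77 for Slc8a3, -0.51 for Slc8a1 and -0.37 for Itpr3. That of Itpr3 was not called without some single arrays, with the myotube groups fitted alone or with arrays centred on their medians.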

How the results depend on the processing

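No result changed sign where it was called. Without any 1 array, the number of the 42 genes called ran from 35 to 36 for differentiation of MuSK-null cells (37 with all arrays), 35 to 38 in wild-type cells (38), 30 to 33 for their difference (32), 32 to 33 for genotype in myoblasts (33) and 19 to 22 in myotubes (22). For BMP4 it ran from 7 to 12 in MuSK-null myoblasts (11), 11 to 12 in wild-type myoblasts (13), 4 to 7 in MuSK-null myotubes (9) and 3 to 5 in wild-type myotubes (5). It ran from 1 to 2 for the difference of myoblast responses (1) and from 2 to 3 for that of myotube responses (3). Of the called genes, 34, 35, 29, 32 and 18 in the first 5 comparisons were kept under every alternative tried, as were 6 of 11, 9 of 13, 3 of 9 and 3 of 5 with BMP4. Fitted alone, the compared groups gave 6 called genes for BMP4 in MuSK-null myoblasts, 4 in MuSK-null myotubes and 0 for the difference of myoblast responses, where limma had 6 at an unadjusted p under 0.05. That difference had 2 with a trended robust prior, 4 with those 4 deviating myoblast arrays as a block, and 0 once they were left out, with 9 at an unadjusted p under 0.05. With the replicate block the counts were 38, 37, 33, 33 and 22 for differentiation and genotype, 12, 12, 9 and 6 for BMP4, and 1 and 3 for the differences of responses. Where the numbers pair the arrays, the block added 1 call, Orai1 with BMP4 in MuSK-null myoblasts (0.28, adjusted p = 0.0433 with the block and 0.0608 without it), and changed no other count. Nfatc4 in MuSK-null cells, not called with differentiation (adjusted p = 0.0545), passed under 5 alternatives (adjusted p 0.0175 to 0.0485). Over all genes, 1115 were called for BMP4 in MuSK-null myoblasts with its groups fitted alone (1678 otherwise), and 745 for the difference of myoblast responses with the same 4 arrays as a block (477 otherwise). Causes were not tested. The untreated groups enter several comparisons, and with 3 arrays per group a p that misses the threshold does not show that levels were equal.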

Other observations

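Markers of bone-forming cells were read as a list of 5 measured genes. The median array mean over the list was 7.15 in treated and 6.42 in untreated MuSK-null myoblasts, and 8.11 and 7.03 in wild-type myoblasts. In MuSK-null myotubes it was 6.54 with and without BMP4, and in wild-type myotubes 7.77 in treated and 6.77 in untreated cells. Of the 5, Sp7 and Alpl alone are described here, and they do not stand for the rest. Sp7, which drives osteoblast formation, rose by log2 changes of 1.74 in MuSK-null and 3.40 in wild-type myoblasts, and of 0.45 in MuSK-null and 3.12 in wild-type myotubes. Alpl, alkaline phosphatase, rose by 1.10 in MuSK-null and 2.13 in wild-type myoblasts and by 1.11 in wild-type myotubes, and its change in MuSK-null myotubes was -0.10 (limma, adjusted p = 0.362). In the same wild-type myotubes Slc8a1 and Slc8a3 rose. The part of this list in the calcium-handling results was not tested.

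Where a gene has several probe sets, they did not always give the same call. Slc8a1 with its other probe set had a genotype difference of 0.83 in myotubes and 0.16 in myoblasts, against 0.44 and 0.41 with the one used, and that of myoblasts was then not called. Its changes with differentiation then differed between lines by 0.67 (limma, adjusted p = 0.0021), against 0.04, not called, with the one used. Jph2 with its other probe set was called lower in MuSK-null myotubes, at a log2 difference of -0.28.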
